A study of Tigriopus californicus with 4 samples.

Results

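Gene expression at 20°C was compared between *Tigriopus californicus*, an intertidal copepod, from San Diego (SD) and from Santa Cruz (SC), in animals that had received no heat stress. The SD control library was set against the SC control library, so each value below is 1 library of mRNA from 1 pool of copepods of all life stages. Each population had its own contigs, 20278 for SD and 20931 for SC, and these were matched through product names. A name was kept if exactly 1 contig carried it in each population and it named no species in brackets, and the mtDNA contigs were matched by gene. This gave 4028 matched names, covering 19.9% of all SD and 19.2% of all SC contigs, and they comprised 4015 nuclear names and 13 mtDNA genes. Of these names, 4016 were above 0 RPKM (mapped reads scaled to contig length and library size) in both control libraries. The median SD over SC ratio of RPKM was 1.17, a shift of 0.22 on the log2 scale, and all ratios are given relative to it. A relative ratio above 1 therefore marks a name that was higher in SD.

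The study also held 1 heat stress library per population, kept for 1 h at 35°C and then for 1 h at 20°C. Both populations had been reared in the laboratory at 20°C, and the stage and sex makeup of the pools is not given in the sources used here. The control libraries shared a lane, and each population carried its own barcode, so that barcode and population cannot be told apart. With 1 library per population there is no test and no spread between replicates. The 95% intervals of a ratio come from how the recovered reads of a name divided between the libraries (exact, Clopper-Pearson), and they cover counting error only. The 95% intervals of a list median are binomial intervals over the names of the list. Those names share their libraries and are not replicates, so these intervals do not measure the uncertainty of a difference between populations. The reads were recovered from the RPKM steps, with totals of 1947202 reads in the SD control library and 3256758 reads in the SC control library. The median matched name had 74 recovered reads in SD and 96 in SC.

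*T. californicus* lives in splash pools high on rocky shores, where temperature and salinity swing widely, and its populations exchange few migrants and are strongly diverged in sequence. Southern populations are known to survive high temperatures better than northern ones. Heat shock proteins keep other proteins folded, the proteasome and ubiquitin remove damaged ones, and the respiratory chain joins subunits encoded in the mtDNA with subunits encoded in the nucleus. The comparison at 20°C asks which of these gene groups stood at different levels in the populations before any heat stress.

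The SC control library stood apart from the other libraries, and this touches every ratio at 20°C. A recovered contig length is the smallest that fits whole reads, so it is a lower limit of the true length. When the names were ordered by recovered contig length in 8 equal bins, the median relative log2 ratio was -0.40 in the bin of shortest contigs and 0.57 in the bin of longest contigs. The same bins gave -0.10 and 0.05 in the heat stress libraries. Within SC, the median log2 ratio of control over heat stress was 0.20 in the shortest and -0.64 in the longest bin. Within SD it was 0.09 and 0.04. The trend with length was therefore seen in the pairs that hold the SC control library. The relative log2 ratio at 20°C also varied with level, at 0.29 in the bin of lowest and -0.50 in the bin of highest RPKM at 35°C. The SD over SC ratio of the heat stress libraries is given beside many of the results below, because it rests on neither control library. It is not a repeat of the comparison, since those copepods had been heated. The part that the length and level trends have in the results was not tested.

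**Figure D1:**
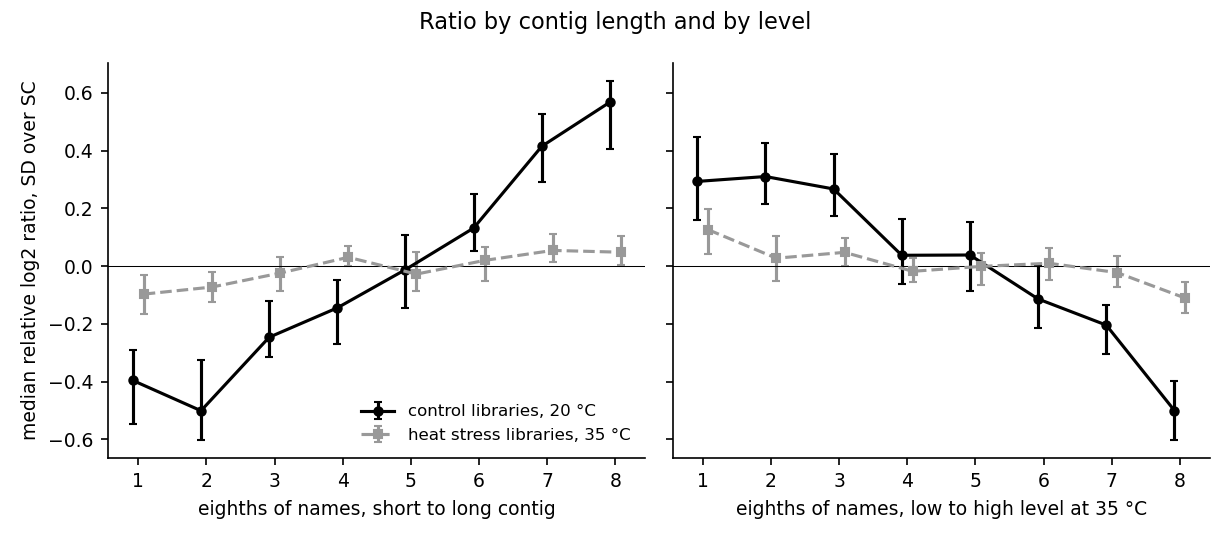
Median relative log2 ratio of SD over SC for matched names in 8 equal bins of recovered contig length (left) and of RPKM at 35°C (right), in the control libraries (black) and the heat stress libraries (grey), with 95% binomial intervals of the median over names. By length, the control medians run from -0.40 in the shortest to 0.57 in the longest bin, and the heat stress medians stay between -0.10 and 0.05.

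Over all names, 158 were more than 4-fold higher in SD (3.93% of 4016) and 129 were more than 4-fold lower (3.21%). At 2-fold these shares were 18.2% and 17.4%. In the heat stress libraries, 1.49% of names were more than 4-fold higher in SD, 0.993% more than 4-fold lower, 6.03% more than 2-fold higher and 4.84% more than 2-fold lower. The standard deviation of the relative log2 ratio over names was 1.16 at 20°C and 0.74 in the heat stress libraries, so the ratios were spread more widely in the control pair. The heat stress libraries were also deeper, with recovered totals of 5583127 reads in SD and 4948622 reads in SC. The part of depth in the spread was not tested. The levels of SD and SC had a Spearman correlation of 0.77 across names at 20°C and 0.88 at 35°C, where names are not replicates and the points of a pair share their libraries. Names over 4-fold higher in SD had a median of 19.2 RPKM in SD against 2.98 RPKM in SC, and those over 4-fold lower had 13 RPKM in SD against 65.1 RPKM in SC. Few reads lay behind many of them: 82 of the 158 higher names and 49 of the 129 lower names had 10 recovered reads or fewer in at least 1 library. Among all 4016 names, 561 had so few. The whole interval was past 4-fold for 29 higher and 45 lower names. Recovered contig lengths also differed by more than 1.5 times for 58.9% of the higher and 55.8% of the lower names, against 43% of all names. These lengths are lower limits, and how far the recovery itself makes them differ was not tested.

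**Figure D2:**
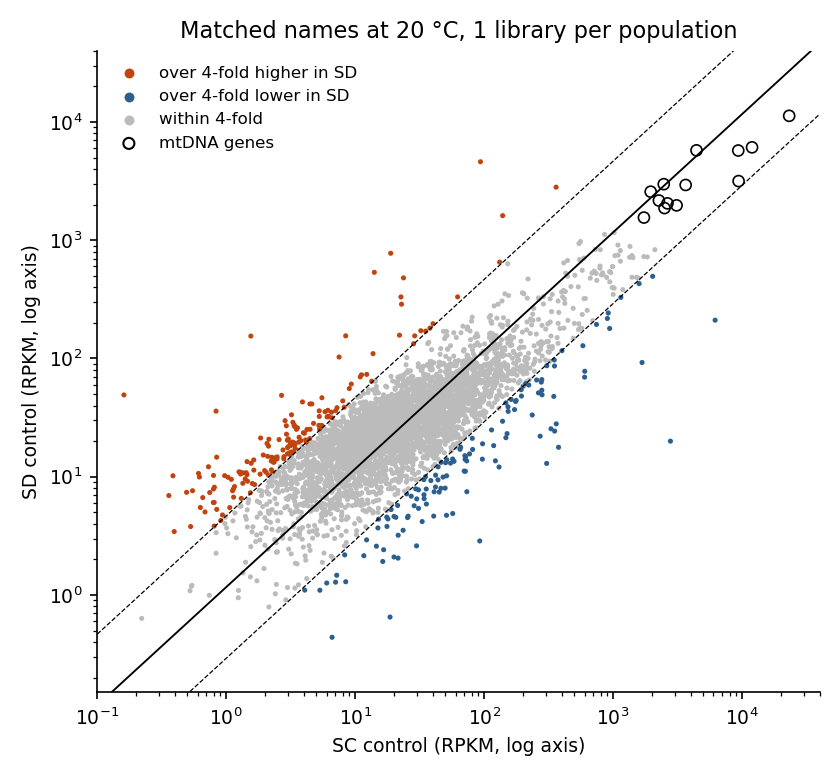
RPKM of 4016 matched names in the SD control library (y axis) and the SC control library (x axis), both on log axes, with the median ratio (solid line) and 4-fold either side of it (dashed lines). The 158 names over 4-fold higher in SD lie mostly at low RPKM, the 129 names over 4-fold lower spread over a wide range, and the mtDNA genes (open circles) sit at the top.

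Most of the 4-fold names stood on the same side in the heat stress libraries. Of the 158 names higher in SD, 142 had a relative ratio above 1 there, 68 were more than 2-fold higher and 36 more than 4-fold higher. Of the 129 names lower in SD, 120 had a ratio below 1, 69 were more than 2-fold lower and 32 more than 4-fold lower. The median relative log2 ratio in the heat stress libraries was 0.82 for the higher names and -1.07 for the lower names, nearer to 0 than at 20°C in both cases. The names were picked by their ratio at 20°C, and that choice alone moves them toward 0 in another pair. Nothing is therefore concluded from this move. Both pairs also share assemblies and name matches, so a name matched to different paralogs would keep its side.

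**Figure D3:**
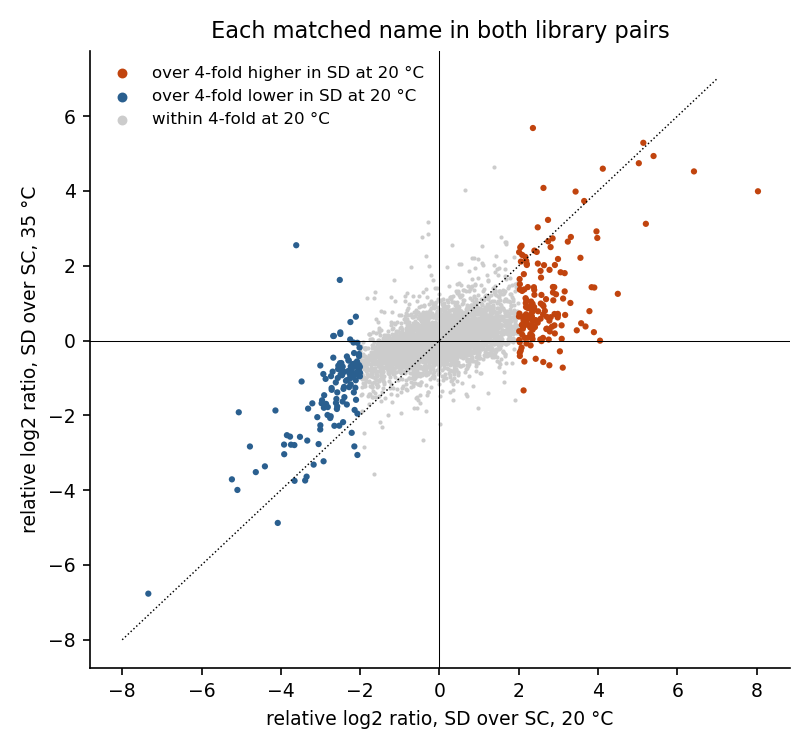
Relative log2 ratio of SD over SC in the control libraries (x axis) and in the heat stress libraries (y axis), 1 point per matched name, with equal ratios on the dotted line. Names over 4-fold from the median ratio at 20°C are coloured, and 142 of 158 higher and 120 of 129 lower names keep their side of 0 at 35°C, most of them closer to 0. Choosing names by their ratio at 20°C alone moves them toward 0 in another pair.

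The names that stood highest in SD by the end of the interval nearest to the median ratio began with protein mago nashi, rad17, merlin moesin ezrin radixin and lsm14. Protein mago nashi (SD_Contig60809 and SCN_Contig35008), a core subunit of the exon junction complex, had 4608 RPKM in SD against 93.6 RPKM in SC, a relative ratio of 42.2 (95% interval 36.8 to 48.6). It was the highest matched nuclear name in SD, and at 35°C its values were 2247 RPKM in SD against 74.6 RPKM in SC. Its SD contig had a recovered length of 223 bp and its SC contig 764 bp. The rad17 checkpoint protein, which loads the DNA damage clamp, had 155 RPKM in SD against 1.55 RPKM in SC, a ratio of 85.6 (95% interval 36.5 to 264). Merlin moesin ezrin radixin, a name for the proteins that tie actin to the cell membrane, had 535 RPKM in SD against 14.1 RPKM in SC, a ratio of 32.6 (95% interval 27.9 to 38.3), with recovered lengths of 3563 bp in SD and 3643 bp in SC. Protein lsm14, which represses translation in cytoplasmic RNA granules, had 776 RPKM in SD against 18.9 RPKM in SC. All 3 were also over 4-fold higher in SD at 35°C, at ratios of 23, 26.8 and 39.1.

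The bumetanide-sensitive Na-K-Cl cotransport protein, which moves salt into cells, had 48.8 RPKM in SD against 2.69 RPKM in SC, a ratio of 15.6 (95% interval 8.78 to 30.0). Cardiac junctin, known in vertebrates from the calcium store of heart muscle, had 155 RPKM in SD against 8.44 RPKM in SC, a ratio of 15.8 (95% interval 10.3 to 25.4). Both were still higher in SD at 35°C, with ratios of 7.57 and 6.70. Thread matrix protein 1b, a name known from mussel byssal threads, had 1614 RPKM in SD against 139 RPKM in SC, and an actin name (act4_artsx) had 2811 RPKM in SD against 361 RPKM in SC. They were among the 3 highest matched nuclear names in SD. Their ratios were 9.95 (95% interval 9.09 to 10.9) and 6.67 (95% interval 6.28 to 7.09). Nucleoside diphosphate kinase, which balances nucleoside triphosphates, had a ratio of 17.4 (95% interval 12.9 to 24), and the name cytoplasmic 2-like had one of 12.6 (95% interval 9.42 to 17). Son of sevenless, an activator of Ras, had a ratio of 11.8 (95% interval 7.86 to 18.4), af6-like protein of cell junctions 8.93 (95% interval 6.05 to 13.7), and the mitochondrial 39s ribosomal protein l50 10.8 (95% interval 8.13 to 14.7). The name histidine ammonia, cut short in the annotation, had a ratio of 36.9 (95% interval 6.54 to 1465), whose width reflects 1 recovered read in SC. The b-cell translocation protein, a brake on cell division, was 6.12 times the median ratio at 20°C and 1.62 times at 35°C, with 22.1 RPKM in the SC control library and 60.2 RPKM in the SC heat stress library. The largest ratio of any name, 262 for upf0493 protein kiaa1632 homolog, was picked after its value was seen, and it rests on 1 recovered read in SC (interval 46.5 to 10392).

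The names that stood lowest in SD included an antimicrobial peptide and several enzymes. G kinase anchoring protein 1 (SD_Contig61540 and SCN_Contig54695), which in vertebrates binds a cGMP-dependent kinase, had 20.0 RPKM in SD against 2782 RPKM in SC, a relative ratio of 0.00617 (95% interval 0.00496 to 0.00758), and 16.2 RPKM in SD against 1791 RPKM in SC at 35°C. Hydramacin-1 (SD_Contig43713 and SCN_Contig55870), an antimicrobial peptide known from *Hydra*, had 211 RPKM in SD against 6179 RPKM in SC, a ratio of 0.0293 (95% interval 0.0256 to 0.0333). These were the top 2 matched nuclear names in SC. Dihydrolipoamide s-acetyltransferase, the core enzyme that feeds pyruvate into the citric acid cycle, had 92.5 RPKM in SD against 1676 RPKM in SC, a ratio of 0.0473 (95% interval 0.0423 to 0.0528). Phosphoglucose isomerase, an early enzyme of glycolysis, had 69.5 RPKM in SD against 601 RPKM in SC, a ratio of 0.0992 (95% interval 0.0866 to 0.113), and alcohol dehydrogenase (NADP+) had 17.8 RPKM in SD against 377 RPKM in SC. At 35°C these 3 enzymes kept relative ratios of 0.0972, 0.157 and 0.0874. A pair of carbonic anhydrase names, enzymes of acid-base balance, had ratios of 0.0695 (95% interval 0.0434 to 0.106) and 0.0873 (95% interval 0.0471 to 0.149). The gaba receptor, an inhibitory neurotransmitter receptor, had 2.86 RPKM in SD against 92.4 RPKM in SC with 3 recovered reads in SD, a ratio of 0.0266 (95% interval 0.00542 to 0.0793). The other names of this group were dense panicle 1, trm112-like protein, protein yipf6, zinc finger ccch domain-containing protein 18, chromosome segregation atpase-like protein, f-box only protein 21 and rhodanese-like domain protein. Their ratios ran from 0.0364 to 0.124 at 20°C and from 0.122 to 0.242 at 35°C. All 15 names were more than 4-fold lower in SD in both library pairs.

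The mtDNA genes, which encode core subunits of the respiratory chain and ATP synthase, were mostly lower in SD. Of the 13 genes, 10 had a relative ratio below 1, 3 were more than 2-fold lower (all names 17.4%) and 0 more than 2-fold higher. Their median relative log2 ratio was -0.59 (95% binomial interval of the median -1.19 to 0.05), a ratio of 0.666, and turned to 0.28 when ratios were scaled to the cytosolic ribosomal proteins in place of all names. Cytb, the cytochrome b subunit of complex III, had 3162 RPKM in SD against 9394 RPKM in SC, a ratio of 0.289 (95% interval 0.281 to 0.296). Cox1, a catalytic subunit of complex IV, had 11270.4 RPKM in SD against 23173 RPKM in SC, a ratio of 0.417 (95% interval 0.412 to 0.422), and was the highest matched name in both libraries. Atp6, a subunit of ATP synthase, had 6103 RPKM in SD against 11942 RPKM in SC, a ratio of 0.438 (95% interval 0.428 to 0.449). These 3 genes made up the group past 2-fold. The other cytochrome oxidase genes lay nearer to the median ratio, with 0.527 (95% interval 0.513 to 0.541) for cox2 and 0.689 (95% interval 0.665 to 0.714) for cox3. The NADH dehydrogenase genes ran from 0.641 (95% interval 0.604 to 0.679) for nad6 to 1.13 (95% interval 1.09 to 1.17) for nad1. Nad1 had 2573 RPKM in SD against 1955 RPKM in SC, and nad2 had 5756 RPKM in SD against 4431 RPKM in SC. The intervals of nad1, nad2 and nd4l overlapped, as did those of nad6 and nad4, and that of cox2 lay within the interval of atp8. In the heat stress libraries 7 of the 13 genes were below a ratio of 1, with a median relative log2 ratio of -0.22. There 0 were past 2-fold either way, against 10.9% of all names. With the trend over contig length taken out at 20°C the median was -0.28. Cytb again had the lowest ratio, 0.577, and nad2 the highest, 1.52. At both temperatures cytb, atp6 and cox1 were the 3 lowest of the 13, and nad1, nad2 and nd4l the 3 highest.

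**Figure D4:**
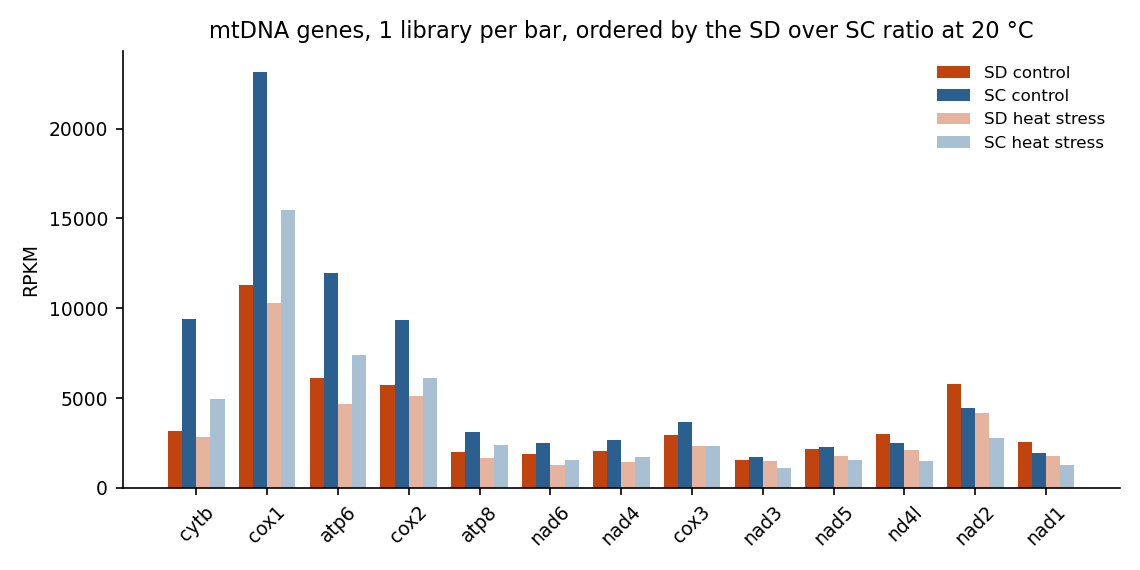
RPKM of the 13 mtDNA genes in the SD control, SC control, SD heat stress and SC heat stress libraries, 1 bar per library with no error bar, ordered by the SD over SC ratio at 20°C. Cytb, cox1 and atp6 show the widest gaps between SD and SC, and the bars of nad1, nad2 and nd4l are higher in SD.

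Nuclear subunits of the respiratory chain and ATP synthase were lower in SD at 20°C as a group. All 29 names of this list had a relative ratio below 1, with 0 over 2-fold higher and 18 over 2-fold lower, against the 17.4% over 2-fold lower among all names. The median relative log2 ratio was -1.40 (95% interval -1.68 to -0.90), a ratio of 0.38, where that of all names is 0 by construction. With the ribosomal scaling it was -0.53. ATP synthase e chain had 128 RPKM in SD against 583 RPKM in SC, a ratio of 0.189 (95% interval 0.16 to 0.221), and the beta 3 subunit of NADH dehydrogenase had 37 RPKM in SD against 172 RPKM in SC. Their ratios at 35°C were 0.424 and 0.617. Cytochrome c1, the complex III partner of cytochrome b, had 197 RPKM in SD against 542 RPKM in SC, a ratio of 0.312 (95% interval 0.282 to 0.344). In the heat stress libraries the median of the list was -0.36 and 27 of 29 names were below a ratio of 1. There 1 name was over 2-fold lower, against 4.84% of all names. Recovered contig lengths in this list were short, with a median of 688 bp, and all names together had a median of 1299 bp. With the trend over length taken out, the median was -0.97 and 13 names were over 2-fold lower.

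Names of the citric acid cycle and of glycolysis, which supply the chain with fuel, were also mostly lower in SD, with medians of -0.24 and 0.03 under the ribosomal scaling. The citric acid cycle and pyruvate list had 1 over 2-fold higher and 7 over 2-fold lower of 13 names, against 18.2% and 17.4% of all names, with a median relative log2 ratio of -1.10 (95% interval -1.84 to -0.35). Mitochondrial malate dehydrogenase, the last enzyme of the cycle, had 181 RPKM in SD against 556 RPKM in SC, and isocitrate dehydrogenase had 86.8 RPKM in SD against 306 RPKM in SC. The name over 2-fold higher was pyruvate dehydrogenase kinase, which switches the pyruvate dehydrogenase complex off, with 30.1 RPKM in SD against 11.6 RPKM in SC. These 3 names had ratios of 0.696, 0.601 and 1.19 at 35°C. The glycolysis list had 0 over 2-fold higher and 7 over 2-fold lower of 15 names (also against 18.2% and 17.4% of all names) and a median of -0.84 (95% interval -1.56 to -0.22), as scaled to all names. Of these 15 names, 4 matched the list by letters alone, and 1 synonym was missing. With the words corrected, 12 names had 0 over 2-fold higher, 5 over 2-fold lower and a median of -0.74. Glyceraldehyde 3-phosphate dehydrogenase, a central enzyme of glycolysis, had 832 RPKM in SD against 2106 RPKM in SC, a ratio of 0.339 (95% interval 0.324 to 0.354), and pyruvate kinase, its last enzyme, had 181 RPKM in SD against 415 RPKM in SC. At 35°C the medians were -0.52 for the citric acid cycle list and -0.56 for the glycolysis list, and the 2 glycolytic enzymes kept ratios of 0.478 and 0.47. Fatty acid metabolism was mixed, with 4 over 2-fold higher and 12 over 2-fold lower of 32 names, against the same shares of all names, and a median of -0.70 (95% interval -1.08 to 0.19), which turned to 0.16 with the ribosomal scaling. The delta-6 fatty acid name, a truncated desaturase-type annotation, had 46.5 RPKM in SD against 5.52 RPKM in SC and carnitine o-acyltransferase, which handles acyl groups for transport, had 15.6 RPKM in SD against 2.98 RPKM in SC, both higher in SD. They remained higher at 35°C, with ratios of 6.65 and 4.72.

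Cytosolic ribosomal proteins were lower in SD for 37 of 41 names, with 0 over 2-fold higher and 15 over 2-fold lower, against 18.2% and 17.4% of all names, and a median of -0.86 (95% interval -1.01 to -0.60). The 60s acidic ribosomal protein p0, part of the ribosomal stalk, had 495 RPKM in SD against 2026 RPKM in SC, a ratio of 0.21 (95% interval 0.198 to 0.222), and 40s ribosomal protein s26 had 722 RPKM in SD against 1839.9 RPKM in SC. In the heat stress libraries the list median was -0.12, with 2 names over 2-fold lower, a share near the 4.84% of all names there. The list had a median recovered length of 623 bp and high levels, with a median of 512 RPKM in SD against 837 RPKM in SC, and its median with the length trend taken out was -0.50. Mitochondrial ribosomal proteins split, with 2 over 2-fold higher and 6 over 2-fold lower of 21 names, against 18.2% and 17.4% of all names. Their median was -0.40, with a 95% interval over names of -1.06 to 0.37. Probable mitochondrial 39s ribosomal protein l49 had 23.2 RPKM in SD against 151 RPKM in SC, opposite to l50, and both kept their side at 35°C, with ratios of 0.107 and 15.8. Translation factors had a median of -0.11, with 5 over 2-fold higher and 10 over 2-fold lower of 51 names. The share over 2-fold lower was near that of all names, and the share over 2-fold higher was below that of all names. Translation elongation factor 2, which moves the ribosome along the mRNA, had 976 RPKM in SD against 559 RPKM in SC, and initiation factor 6, which keeps the ribosomal subunits apart, had 148 RPKM in SD against 490.5 RPKM in SC. Their ratios at 35°C were 0.959 and 0.614.

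Proteasome subunits were lower in SD for 22 of 25 names, with 1 over 2-fold higher and 13 over 2-fold lower, against 18.2% and 17.4% of all names, and a median of -1.06 (95% interval -1.22 to -0.63), or -0.19 with the ribosomal scaling. Proteasome subunit beta type-6, a catalytic subunit, had 49.3 RPKM in SD against 281 RPKM in SC, a ratio of 0.15 (95% interval 0.12 to 0.186), and 0.517 at 35°C. The name over 2-fold higher, 26s non-ATPase subunit 5, is an assembly factor of the regulatory particle and had 70.1 RPKM in SD against 28 RPKM in SC, with a ratio of 1.73 at 35°C. At 35°C the list median was -0.43, and with the length trend taken out at 20°C it was -0.99. The ubiquitin system was centred on the median ratio of all names, at -0.02 (95% interval -0.34 to 0.38) over 77 names, with 8 over 2-fold higher and 14 over 2-fold lower, the share over 2-fold lower being near that of all names and the share over 2-fold higher below it. A pair of sentrin sumo-specific protease names, which remove the ubiquitin-like modifier SUMO, had ratios of 4.46 (95% interval 3.27 to 6.15) and 4.41 (95% interval 3.09 to 6.46), and of 1.57 and 2.58 at 35°C. A polyubiquitin name had 12.1 RPKM in SD against 130.5 RPKM in SC, a ratio of 0.0795 (95% interval 0.0283 to 0.18), with 26.7 RPKM in SD against 364 RPKM in SC at 35°C.

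Antioxidant and glutathione enzymes had 1 over 2-fold higher and 15 over 2-fold lower of 28 names, against 18.2% and 17.4% of all names, and a median of -1.15 (95% interval -1.51 to -0.17), or -0.29 with the ribosomal scaling. Names of superoxide dismutase, which removes superoxide, were lower in SD: the unqualified superoxide dismutase had 218 RPKM in SD against 903 RPKM in SC, the mitochondrial form 97.1 RPKM in SD against 349.8 RPKM in SC, and the Cu/Zn form 13.5 RPKM in SD against 58.4 RPKM in SC. Their ratios were 0.207 (95% interval 0.177 to 0.242), 0.238 (95% interval 0.202 to 0.279) and 0.198 (95% interval 0.127 to 0.30). Glutathione s-transferase 1, a detoxifying enzyme, went the other way with 35.5 RPKM in SD against 5.84 RPKM in SC, a ratio of 5.21 at 20°C and 2.69 at 35°C. In the heat stress libraries the list median was -0.14 with 1 name over 2-fold lower, against 4.84% of all names. The 3 superoxide dismutase names had ratios of 0.546, 0.539 and 0.745 there. Ferritin, the iron store, had 33.6 RPKM in SD against 90.2 RPKM in SC at 20°C and a ratio of 0.772 at 35°C.

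**Figure D5:**
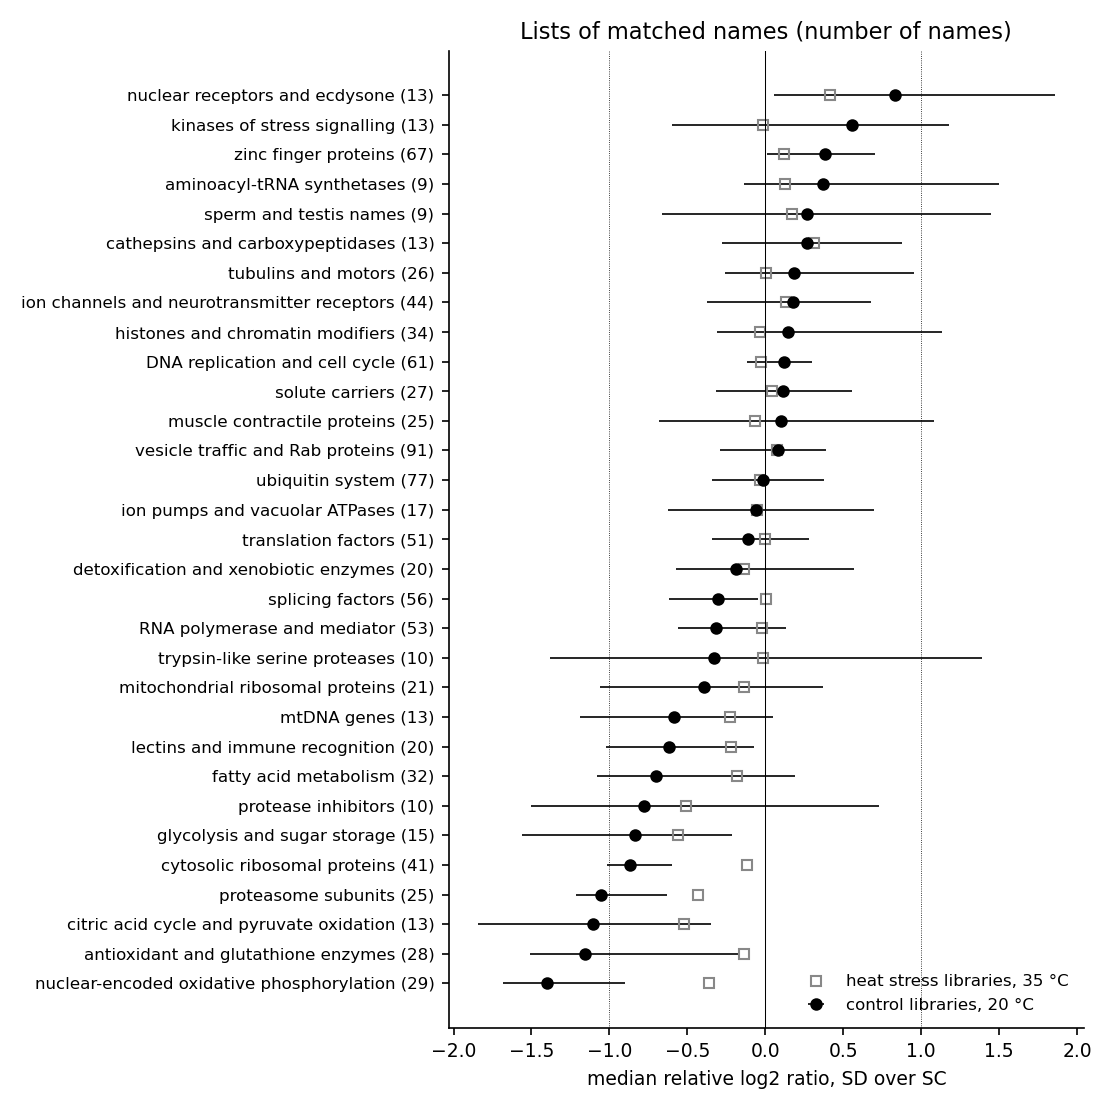
Median relative log2 ratio of SD over SC for each list with at least 9 matched names (number of names in brackets), in the control libraries (filled points, with 95% binomial intervals of the median over names) and the heat stress libraries (open squares). Dotted lines mark 2-fold, and nuclear-encoded oxidative phosphorylation at -1.40 and nuclear receptors at 0.83 stand at the ends at 20°C, while the squares lie closer to 0 for these lists.

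Heat shock proteins and their partners did not share a direction at 20°C. Few of them could be matched: 5 names of the hsp70 family, which had 16 contigs in SD and 19 in SC. In this family, heat shock cognate 70 protein, the form made without stress, had 223 RPKM in SD against 109 RPKM in SC, a ratio of 1.75 (95% interval 1.56 to 1.96), and 0.907 at 35°C. Heat shock 70 kDa protein had 152 RPKM in SD against 112 RPKM in SC, a ratio of 1.17 (95% interval 1.06 to 1.29), and 0.791 at 35°C. Heat shock 70 kDa protein 14 had 37.2 RPKM in SD against 35.5 RPKM in SC, a ratio of 0.899 (95% interval 0.717 to 1.12) and the only one of the family below 1. Hypoxia up-regulated protein 1, an hsp70 relative of the endoplasmic reticulum, had 59.1 RPKM in SD against 22.9 RPKM in SC, with ratios of 2.21 at 20°C and 1.28 at 35°C. The 78 kDa glucose-regulated protein, the hsp70 of the endoplasmic reticulum, had 41.5 RPKM in SD against 25.5 RPKM in SC, with ratios of 1.40 at 20°C and 4.13 at 35°C. Of the 5 family names, 1 was over 2-fold higher at 20°C, a share near the 18.2% of all names. The family median was 0.48 at 20°C and -0.14 at 35°C on the log2 scale. Of the small heat shock proteins, which hold unfolding proteins in solution, hsp20 alpha-crystallin had 73.4 RPKM in SD against 12.3 RPKM in SC, a ratio of 5.12 (95% interval 1.69 to 25.4). Its SC contig had a recovered length of 75 bp and 3 recovered reads, both lower limits. At 35°C the values of hsp20 alpha-crystallin were 2728 RPKM in SD against 53.9 RPKM in SC, a ratio of 51.4. The name small heat shock protein had 16.8 RPKM in SD against 11.4 RPKM in SC, a ratio of 1.26 (95% interval 0.879 to 1.81), whose interval includes 1, and 1.40 at 35°C. Co-chaperones of hsp90 lay on both sides. Cdc37, which brings kinases to hsp90, had 51.2 RPKM in SD against 15.1 RPKM in SC, a ratio of 2.90 (95% interval 2.14 to 3.95), and 1.77 at 35°C. The hsp70 hsp90 organizing protein, which passes clients between these chaperones, had 82.1 RPKM in SD against 216 RPKM in SC, a ratio of 0.326 (95% interval 0.285 to 0.373), but 260.1 RPKM in SD against 108 RPKM in SC at 35°C. Heat shock protein 40, a partner of hsp70, had 205 RPKM in SD against 114 RPKM in SC at 20°C and a ratio of 2.56 at 35°C. Of the chaperonins, which fold actin and tubulin, t-complex protein 1 subunit gamma had 134 RPKM in SD against 374 RPKM in SC, a ratio of 0.308 (95% interval 0.28 to 0.338), and chaperonin subunit 6a zeta had 88.2 RPKM in SD against 152 RPKM in SC. Their ratios at 35°C were 0.707 and 0.774. Protein disulfide-isomerase a6, a folding enzyme of the endoplasmic reticulum, had 53.4 RPKM in SD against 131 RPKM in SC, while udp-glucose:glycoprotein glucosyltransferase 2, which senses misfolded glycoproteins, had 25.2 RPKM in SD against 3.50 RPKM in SC. Their ratios were 0.35 and 6.16 at 20°C, and 0.572 and 1.89 at 35°C.

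Nuclear receptors stood on the high side in SD. The list had 5 over 2-fold higher and 0 over 2-fold lower of 13 names, against 18.2% and 17.4% of all names, and a median of 0.83 (95% interval 0.06 to 1.86). Ecdysone inducible protein 75, an early gene of the moulting hormone response in insects, had 14.6 RPKM in SD against 2.25 RPKM in SC, a ratio of 5.57 (95% interval 3.38 to 9.47), and the nuclear receptor 2dbd-gamma had 19.4 RPKM in SD against 4.59 RPKM in SC. At 35°C the ratios were 1.39 and 2.07, and the list median was 0.41. Of the 13 names, 6 are no nuclear receptors but matched a word of the list, and the remaining 7 had a median of 1.66, with 4 over 2-fold higher and 0 over 2-fold lower. Cuticle proteins, which build the exoskeleton, numbered 5. Cuticular protein 72ea had 75.2 RPKM in SD against 24.7 RPKM in SC, cuticular protein analogous to peritrophins 3-d1 had 33.6 RPKM in SD against 9.22 RPKM in SC, and cuticular protein 15 had 289 RPKM in SD against 288 RPKM in SC. Their ratios at 35°C were 4.05, 3.34 and 1.58. A cuticular protein of the rr-1 family had 2.05 RPKM in SD against 21.5 RPKM in SC but 52.2 RPKM in SD against 9.06 RPKM in SC at 35°C. Chitinase 3, which breaks down chitin, had 181 RPKM in SD against 38 RPKM in SC, a ratio of 4.08 (95% interval 3.34 to 5.02) and of 2.84 at 35°C.

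Histones and chromatin modifiers had 11 over 2-fold higher and 2 over 2-fold lower in SD at 20°C, of 34 names and against 18.2% and 17.4% of all names, with a median of 0.15 (95% interval -0.31 to 1.14). A myst histone name, a family of acetyltransferases, had 18.2 RPKM in SD against 2.13 RPKM in SC, a ratio of 7.32 (95% interval 4.14 to 14.1), and the polycomb protein asx, a chromatin repressor partner, had 25.3 RPKM in SD against 5.29 RPKM in SC. Their ratios at 35°C were 2.11 and 1.59. The splicing list had 5 over 2-fold higher and 11 over 2-fold lower of 56 names, and RNA polymerase and mediator had 6 over 2-fold higher and 11 over 2-fold lower of 53. For both lists the share over 2-fold lower was near that of all names, and the share over 2-fold higher was below that of all names. Histone 1 itself had 317 RPKM in SD against 267 RPKM in SC. Zinc finger proteins had 15 over 2-fold higher and 3 over 2-fold lower of 67 names, against the same shares, and a median of 0.38 (95% interval 0.01 to 0.70), and zinc finger protein c3h type-like 1a had 653 RPKM in SD against 132 RPKM in SC with a ratio of 4.89 at 35°C. The medians at 35°C were -0.03 for the chromatin list and 0.12 for the zinc finger list. The median recovered lengths of these lists, 1639 and 1535 bp, were above that of all names. Ion channels and neurotransmitter receptors had 14 over 2-fold higher and 8 over 2-fold lower of 44 names, against 18.2% and 17.4% of all names, with levels of 9.93 RPKM in SD against 6.59 RPKM in SC at the median. The name chloride channel clic-like 1 had 24.9 RPKM in SD against 114 RPKM in SC and nicotinic acetylcholine receptor subunit beta1 had 9.95 RPKM in SD against 0.62 RPKM in SC with 1 recovered read in SC. Their ratios at 35°C were 0.409 and 1.73, and the list median was 0.18 at 20°C and 0.13 at 35°C. The sarcoplasmic calcium-transporting ATPase, which refills calcium stores, had 119.8 RPKM in SD against 52 RPKM in SC, with ratios of 1.98 at 20°C and 1.08 at 35°C.

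Names that mark tissues, sexes or other organisms give a partial view of the makeup of the pools. An opsin of the uv-wavelength type, a visual pigment, had 243 RPKM in SD against 917 RPKM in SC, a ratio of 0.227 (95% interval 0.202 to 0.255), and 256 RPKM in SD against 941 RPKM in SC at 35°C. The opsin list held 5 names, but 3 of them matched it by letters alone. Of the other 2, 1 was over 2-fold higher and 1 over 2-fold lower in SD, against 18.2% and 17.4% of all names. Their median was -0.31, so the opsin list had no shared direction. Hepatopancreas trypsin, a digestive enzyme, had 133 RPKM in SD against 119 RPKM in SC. Cathepsin l precursor, a lysosomal and digestive protease, had 78 RPKM in SD against 603 RPKM in SC, with recovered lengths of 112 bp in SD and 1379 bp in SC. Most names of its list went the other way. Of the 13 cathepsin and carboxypeptidase names, 9 were higher in SD, with a median of 0.27. The list had 2 over 2-fold higher and 2 over 2-fold lower, against 18.2% and 17.4% of all names. The muscle list held 25 names, but 16 of them are not contractile muscle proteins. The other 9 had a median of -0.69 with 1 over 2-fold higher and 1 over 2-fold lower, against 18.2% and 17.4% of all names. Sperm and testis names had 4 over 2-fold higher and 1 over 2-fold lower of 9, against 18.2% and 17.4% of all names. Their median was 0.27, with a 95% interval over names of -0.67 to 1.44. Bromodomain testis-specific had 41.9 RPKM in SD against 13.2 RPKM in SC with a ratio of 3.79 at 35°C. No vitellogenin, the yolk protein of females, could be matched by name. Over all contigs named vitellogenin or apolipoprotein, the recovered reads made up 1.83% of the SD control library on 31 contigs and 0.975% of the SC control library on 22 contigs. In whole animals, fewer cells or animals of a type and less RNA per cell cannot be told apart.

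Several large lists lay close to the median ratio of all names when scaled to it. Vesicle traffic, DNA replication and cell cycle, solute carriers, tubulins and motors, detoxification, splicing, and RNA polymerase and mediator had medians between -0.32 and 0.19. With the ribosomal scaling the medians of detoxification, splicing, and RNA polymerase and mediator turned to 0.67, 0.56 and 0.55. The other 4 were above 0 in both scalings. The 91 vesicle traffic names had 11 over 2-fold higher and 14 over 2-fold lower, and the 61 replication and cell cycle names had 6 over 2-fold higher and 6 over 2-fold lower, both below the shares of all names. Proliferating cell nuclear antigen, the sliding clamp of replication, had 34.6 RPKM in SD against 61.8 RPKM in SC, with ratios of 0.481 at 20°C and 0.792 at 35°C. Ras-related protein rab-7a, a marker of late endosomes, had 74.9 RPKM in SD against 215 RPKM in SC, with ratios of 0.299 and 0.699. Nuclear names at like levels in SD and SC were found among the most abundant matched ones. Actin related protein 1 had 1161 RPKM in SD against 1019.8 RPKM in SC, a ratio of 0.976 (95% interval 0.935 to 1.02), lysozyme c-4, an enzyme against bacterial walls, had 1121 RPKM in SD against 859 RPKM in SC, and collagenase precursor had 837 RPKM in SD against 728 RPKM in SC.

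A further 12 matched names were listed at 0 in a control library, 3 in SD and 9 in SC. Set against a floor of 3 reads in the library at 0, only 2 reached 4-fold, and these are named after their values were seen. Multiple pdz domain was listed at 0 in SD against 22.6 RPKM in SC, at least 5.18-fold lower, with 5.91 RPKM in SD against 31.9 RPKM in SC at 35°C. Zinc finger protein 287 had 8.89 RPKM in SD and was listed at 0 in SC, at least 4.39-fold higher, with 7.67 RPKM in SD against 8.01 RPKM in SC at 35°C. For the other names the bound lay under 4-fold, so that such a difference was not detectable at this depth.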

How the data were processed

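The authors trimmed the reads, assembled a reference for each population from these and earlier reads, mapped each library to the assembly of its own population with CLC Genomics Workbench, and named contigs by their best BLASTX hit. They deposited RPKM values per contig (reads scaled to contig length and library size), with no counts. A shared product name may stand for paralogs or fragments of a gene, and mapping to separate assemblies can change the values of each population. Contig sequences were not used here.

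Ratios were computed as SD over SC and divided by the median ratio of the matched names. Library totals, and the smallest length of each contig at which its control and heat stress values both came out as whole reads, were searched for. Fitted lengths were unlikely by chance (under 0.05) for 88.1% of SD and 100% of SC contigs. Recovered reads and lengths are lower limits of the true ones. The mtDNA gene nad2, for one, had a recovered length of 323 bp in SD and 969 bp in SC. Fewer recovered reads widen the intervals, and both the recovery and the intervals were tested on simulated data. No test was run, with 1 library per group.

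Names in the text were all mtDNA genes, the 15 per direction with the largest ratio by the interval end nearest to the median (names that give no gene left out), the 10 highest in each population, and in each of 43 word lists up to 3 past 2-fold per direction and the 2 highest in RPKM. Some further members are given for the chaperone lists, and where said. Members and lists were chosen with earlier results of these data known. After the ratios had been seen, 62 list entries were found to match by letters alone and 1 synonym to be missing, in 18 lists. The lists were kept as first written, and the corrected words are an alternative. Python 3.11.15, pandas 2.3.3, NumPy 2.4.6 and SciPy 1.17.1 were used. The alternatives were other scalings, added RPKM, filters on level, reads and length, names on up to 3 contigs, names that give no gene left out, the heat stress libraries, and, chosen after seeing the data, a correction for contig length and the corrected words.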

Additional observations from a re-analysis of the deposited data

Results flagged for a closer look

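The hsp70 hsp90 organizing protein homolog was lower in SD at 20°C, with 82.1 RPKM in SD against 216 RPKM in SC (relative log2 ratio -1.61), and higher in SD in the heat stress libraries, with 260.1 RPKM in SD against 108 RPKM in SC (relative log2 ratio 1.29). It was picked out because its ratio was past 2-fold in opposite directions at the 2 temperatures. The cuticular protein rr-1 family (agap009876-pa) was picked out in the same way, with 2.05 RPKM in SD against 21.5 RPKM in SC at 20°C (relative log2 ratio -3.61, on 3 recovered reads in SD) and 52.2 RPKM in SD against 9.06 RPKM in SC at 35°C (relative log2 ratio 2.55). Neither difference between temperatures was tested, with 1 library per group. Both came from the names picked by the rules above, and other matched names also changed direction in this way. Of the 158 names over 4-fold higher in SD at 20°C, 1 was over 2-fold lower at 35°C. Of the 129 names over 4-fold lower, 2 were over 2-fold higher at 35°C, and the cuticular protein is 1 of them.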

How the results depend on the processing

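Names over 4-fold higher and lower in SD numbered 158 and 129 as reported. They numbered 53 and 78 with at least 5 RPKM in both libraries, 78 and 77 with more than 10 recovered reads in both, 71 and 52 with recovered lengths within 1.5 times, 239 and 205 with names on 1 to 3 contigs, and 60 and 40 in the heat stress libraries. The cause of these changes was not tested. Scaled to the cytosolic ribosomal proteins, they numbered 614 and 37, and the mtDNA median turned to 0.28, as that scaling takes the ribosomal median of -0.86 off every log2 ratio. Names over 2-fold either way numbered 1428 as reported, 769 with lengths within 1.5 times and 438 in the heat stress libraries. With no scaling the 4-fold counts were 223 and 95, with 1 RPKM added 106 and 110, and with the length correction 185 and 95.

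Past 2-fold at 20°C, these names had a relative log2 ratio of the other sign in the heat stress libraries: a chain crystal structure of cyclin-dependent kinase 2 with inhibitor (0.173), bromodomain adjacent to zinc finger protein domain (-0.0915), chitinase domain-containing protein 1 precursor (0.225), cuticular protein rr-1 family (agap009876-pa) (2.55), dual specificity mitogen-activated protein kinase kinase 1 (-0.0368), hsp70 hsp90 organizing protein homolog (1.29), jnk1-associated membrane protein (0.159), kinesin-like protein a (-0.0891), muscle-specific protein 300 cg33715- isoform b (-0.227), nuclear autoantigenic sperm protein (histone-binding) (-0.0916), protein disulfide-isomerase 1 (-0.365), skeletal muscle cells re-entry induced (-0.264), small nuclear ribonucleoprotein polypeptide (0.125), sodium potassium adenosine triphosphatase (-0.157), sodium potassium-transporting atpase alpha chain (-0.487), troponin i isoform 2 (0.0235). These are 16 of the 270 names picked by the rules above. Other matched names past 2-fold at 20°C are not listed. The causes of these moves were not tested. With the list words corrected, medians moved by up to 1.68 on the log2 scale, for the 3 transposable element names. The 3-name transposable element list also turned sign with at least 5 RPKM (-0.10) and with corrected words (-0.39). Other settings turned no named name or list median past 2-fold. Leaving out a library was not possible with 1 per group. No paired analysis was possible because each group has 1 library. Depth limits low names most, and the intervals do not cover differences between pools.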

Other observations

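Shares of recovered reads over all contigs of a class, matched or not, were computed as well. They are lower limits and depend on how many contigs carry such a name. The 13 mtDNA genes took 4.30% of the SD control library and 7.92% of the SC control library. Cytosolic ribosomal protein contigs took 2.98% of the SD control library on 92 contigs and 4.73% of the SC control library on 114 contigs. Cuticle protein contigs took 0.364% of the SD control library on 74 contigs and 0.291% of the SC control library on 62 contigs, and hsp70 family contigs took 0.278% of the SD control library on 16 contigs and 0.194% of the SC control library on 19 contigs. For these classes the median RPKM of the contigs went against the share. It was 9.32 in SD against 25.3 in SC for cuticle and 33.7 in SD against 76.6 in SC for hsp70. In the other classes of this paragraph the median went with the share. Small heat shock protein contigs took 0.106% of the SD control library on 17 contigs and 0.159% of the SC control library on 16 contigs, and transposable element names took 0.037% of the SD control library on 79 contigs and 0.0503% of the SC control library on 73 contigs.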
